A study of Populus tremula x Populus alba with 24 samples.

Results

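The genes described here are 10 transcription factor genes of poplar that act as master switches of secondary wall formation in wood. They are 6 wood-associated NAC domain genes, WND1A (Potri.011G153300), WND1B (Potri.001G448400), WND2A (Potri.014G104800), WND2B (Potri.002G178700), WND6A (Potri.013G113100) and WND6B (Potri.019G083600), and 4 MYB genes, MYB002 (Potri.001G258700), MYB003 (Potri.001G267300), MYB020 (Potri.009G061500) and MYB021 (Potri.009G053900). They were chosen by name, with earlier results of these data known, and all 10 are among the 42950 genes of the table. Roots of the hybrid Populus tremula x Populus alba, clone 717-1B4, were treated for 1 h with a 10 nM solution of lipochitooligosaccharides (LCO), signal molecules with which the bacterium Rhizobium sp. IRBG74 addresses plant roots. Plants had grown on plates low in nitrogen and phosphate, and immersion began 3 h after dawn. RNA sequencing covers a control at time 0 and LCO-treated roots at 7 times, the earliest being 15 min and 30 min and the others 1 h, 2 h, 4 h, 8 h and, last, 24 h. There are 3 libraries a group, or 2 at 30 min and 2 h, each from the pooled roots of 4 plants. Every group is of this 1 clone. Whether control roots were themselves dipped in the control solution, 0.005% ethanol, is not plain from the labels. Controls were taken at time 0 only, so LCO, immersion, elapsed time and, other than at 24 h, the time of day cannot be told apart.

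As background, fibres and vessels of wood build a thick secondary wall of cellulose, xylan and lignin, and a cascade of transcription factors turns this program on. NAC proteins stand at its top: the WND1 and WND2 proteins are relatives of Arabidopsis SND1 and NST1, which act in fibres and other wall-thickening cells, and the WND6 proteins are relatives of Arabidopsis VND7, which acts in vessels. The MYB genes form the next tier. Their closest Arabidopsis relatives are MYB46 and MYB83, direct targets of the NAC proteins that in turn activate genes for wall polymers. In a young root this program runs in the xylem, which is a small share of the tissue.

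All 10 genes were low in these roots. Levels are given as TPM, a relative abundance corrected for transcript length and library size, so that levels of different genes can be compared. Of the 220 member values (10 genes in 22 libraries), 167 lay below 1 TPM, 15 were listed at 0 and 16 reached 2 TPM. The highest was 6.41 TPM, WND2A in 15 min replicate 1. Averaged over all libraries, only WND2A (1.85 TPM), MYB021 (1.42 TPM) and WND1A (1.18 TPM) exceeded 1 TPM. The other 7 lay below, with means of 0.779 TPM for WND1B, 0.492 TPM for WND2B, 0.333 TPM for MYB003, 0.284 TPM for MYB020, 0.242 TPM for MYB002, 0.202 TPM for WND6A and 0.125 TPM for WND6B. The mean of WND2A was above that of 46.7% of all genes in the table, and the mean of WND6B above that of 24.6%.

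**Figure D1:**
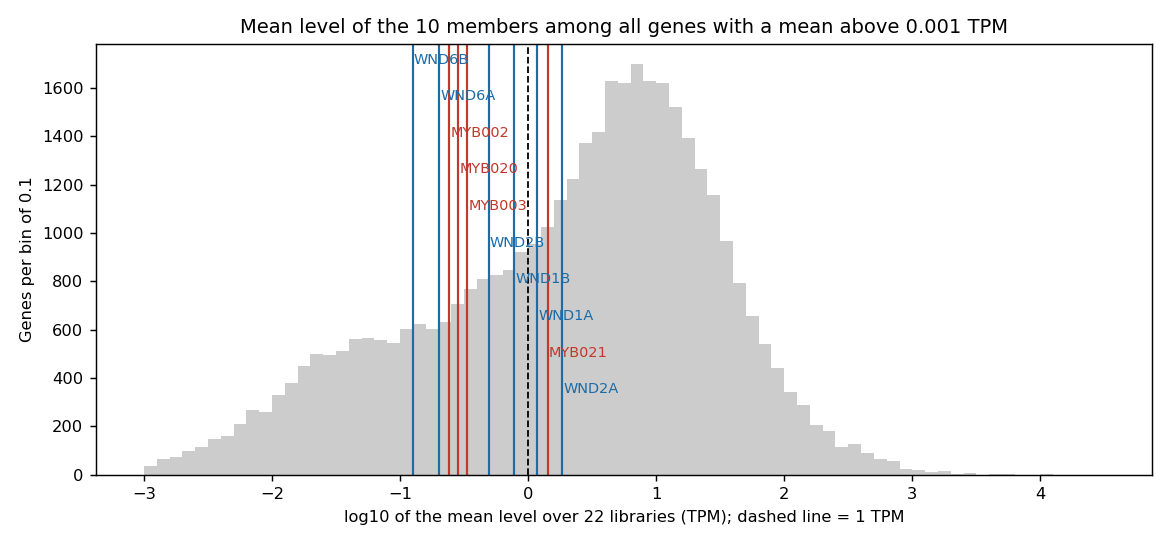
Mean level of each of the 10 genes (vertical lines, NAC blue, MYB red) among all genes with a mean above 0.001 TPM (grey bars, genes per bin of 0.1 on a log10 axis). All 10 lines lie left of the peak of the distribution, and 7 lie below the dashed line at 1 TPM.

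By library, WND6A, WND6B, MYB002 and MYB003 were below 1 TPM in all 22 libraries, MYB020 in 21, WND2B in 20, WND1B in 15, WND1A in 11, and WND2A and MYB021 in 6 each. The number of the 10 genes at 1 TPM or more was 1 to 3 in the control libraries, 3 to 5 at 15 min, 1 or 2 at 30 min, 0 to 3 at 1 h, 0 or 2 at 2 h, 1 or 2 at 4 h, 3 or 4 at 8 h and 4 in each 24 h library. Low levels make each value imprecise: TPM keeps no read numbers, the depth behind a value is unknown, and a gene listed at 0 is not shown to be absent. Genes listed at 0 numbered 10314 to 10663 in the control libraries, 9241, 12139 and 9265 at 15 min, and 10503 and 13313 at 30 min. They numbered 11176 to 12911 at 1 h, 12054 and 11854 at 2 h and 10016 to 10762 at 4 h. At 8 h they numbered 9165 to 10070 and at 24 h 9029 to 9494. Whether the levels of the members go along with these numbers was not tested. In whole roots, fewer xylem cells and less RNA per cell cannot be told apart.

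**Figure D2:**
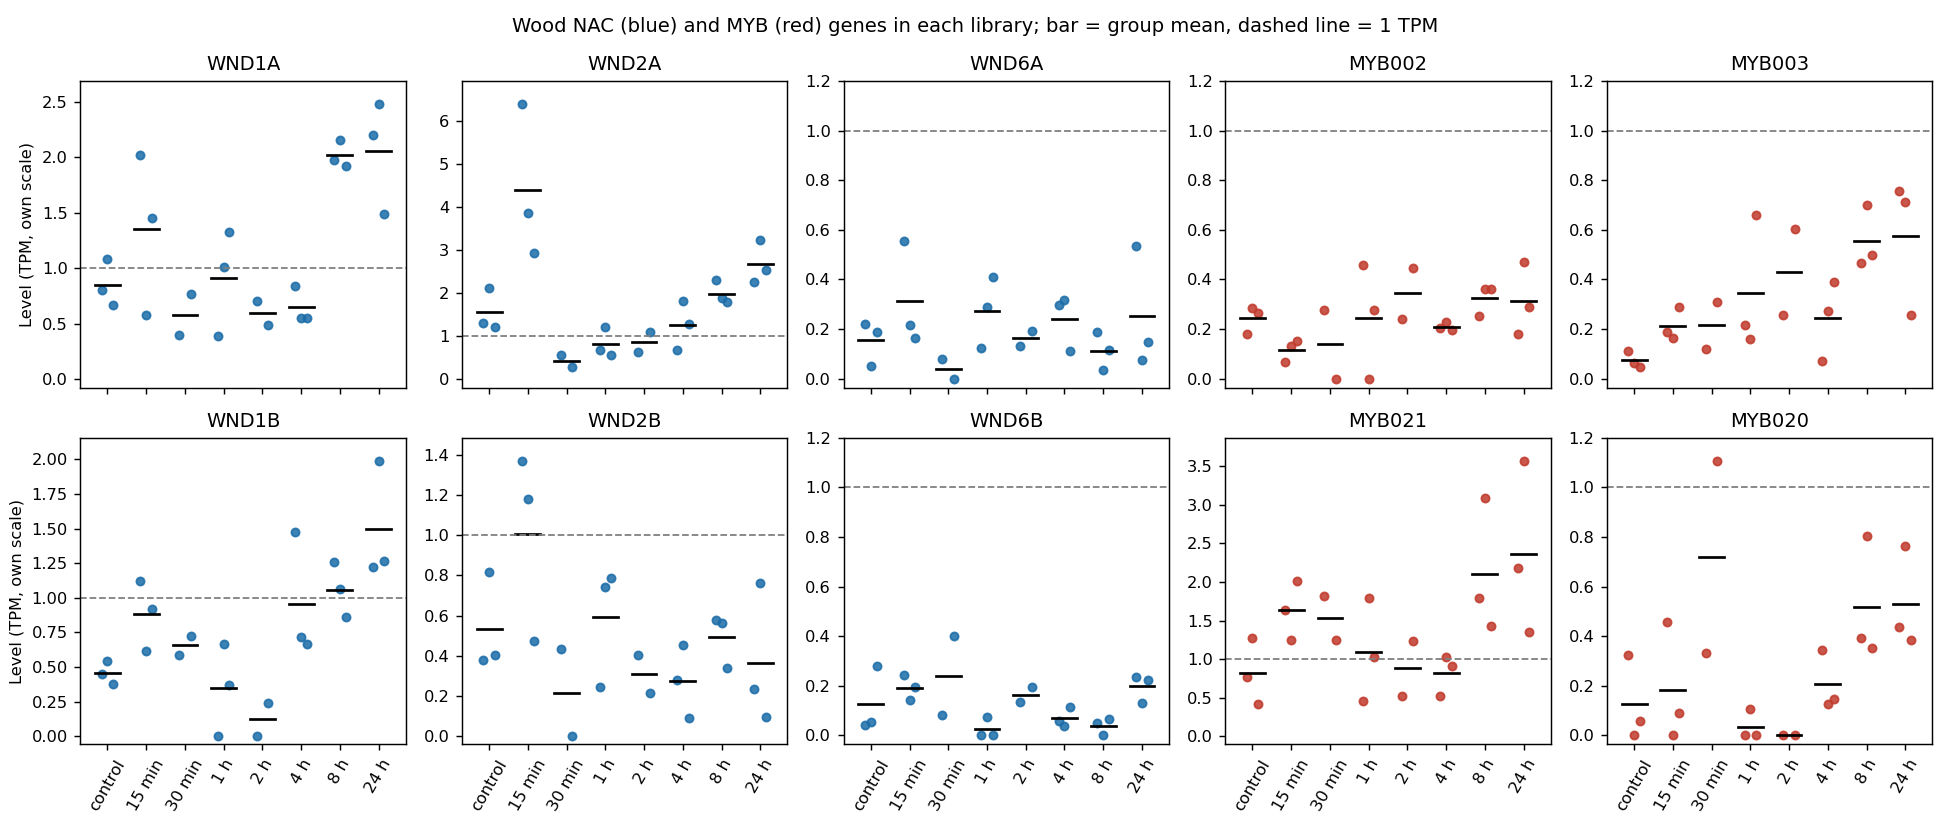
Level in TPM of each gene in every library, grouped by time (points are libraries, bars are group means, the dashed line is 1 TPM, and each panel has its own scale). WND2A is highest at 15 min, between 2.94 and 6.41 TPM, and WND1A is between 1.92 and 2.16 TPM at 8 h against 0.667 to 1.08 TPM in the control.

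The libraries of 15 min and 30 min agreed least within their groups. The correlation of 15 min replicate 2 with its group mates, across genes, was 0.881 and 0.910, and that of the 30 min libraries with each other 0.909, while pairs of control libraries reached 0.958 to 0.972. On the first principal component 15 min replicate 2 lay at -75.3, against 17.2 and 9.91 for replicates 1 and 3. In the 30 min group replicate 3 lay at -80.4 and replicate 1 at -52.4, and with 2 libraries neither can be called the odd one. The 1 h libraries were spread too, at -22.8, -68.1 and -85.1, with correlations down to 0.911. Markers of root, leaf and phloem were defined by gene descriptions, and no annotation was used, so the root label was not checked.

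Each time was compared with the control by limma on log2(TPM + 1), two-sided, with adjusted p-values (Benjamini-Hochberg) and a threshold of 0.05. The usual filter, a mean of at least 1 TPM, kept 25636 genes and 3 of the 10. WND1A passed it through the late times: over the 16 libraries other than 8 h and 24 h its mean was 0.852 TPM. Counts over the 10 genes, and all gene tests of WND1A against control or between 4 h and 8 h, are therefore taken from a fit without the filter. It covers all 39483 genes with a value above 0. By that count, 1 of the 10 genes was higher than control at 15 min, where 4.41% of all genes were called in either direction, and 2 of 10 at 8 h (23.2%) and 4 of 10 at 24 h (23.4%) were higher. The share of genes called higher was 13.2% at 8 h and 13.7% at 24 h. Those 2 were WND1A and MYB003, and WND1B and MYB021 joined them at 24 h. None of the 10 was called lower at any time. Of all 39483 genes, 767 were called lower at 15 min, 3966 at 8 h and 3840 at 24 h, so few of 10 genes would be at that share. Without 15 min replicate 2 and 30 min replicate 3 the numbers were 1, 3 and 5, MYB020 being the one added at 8 h and 24 h. Without 1 h replicate 3 as well they were 2, 3 and 4: WND1A was added at 15 min, MYB020 was added at 8 h and 24 h, and MYB021 was no longer called at 24 h. In the fit with the filter, leaving out 15 min replicate 2 and 30 min replicate 3 also raised the calls over all 25636 tested genes. They went from 2066 to 6761 at 15 min, from 9294 to 11271 at 8 h and from 9189 to 11202 at 24 h. The added members are thus part of a general rise in calls. Of all 39483 genes, 1570, 8766 and 8804 were called with a pseudocount of 0.1 TPM, where the member counts were 0, 1 and 1. Leaving out any 1 library of the groups compared gave 0 to 1 at 15 min, 0 to 2 at 8 h (0 without 8 h replicate 2) and 1 to 4 at 24 h (1 without 24 h replicate 1 or 2, 2 without control replicate 1 or 3). Values of WND2A and MYB021 come from the fit with the filter, where 8.06% of tested genes were called at 15 min, 36.3% at 8 h and 35.8% at 24 h. At 30 min, 1 h, 2 h and 4 h limma called 0 of the 10, where 0.899%, 1.75%, 2.68% and 5.65% of all genes were called. At an unadjusted p under 0.05 the numbers at these times were 2, 0, 1 and 0.

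WND2A, a fibre-type NAC switch and the most abundant of the 10, rose at 15 min and was low again by 30 min. The control libraries held 1.32, 2.13 and 1.22 TPM, those of 15 min 6.41, 3.86 and 2.94 TPM, and those of 30 min 0.568 and 0.287 TPM. All 15 min libraries lay above all controls and both 30 min libraries below them, with no overlap. Of the genes that passed the filter, 11.3% had all 15 min libraries above all controls. For 18.1% both 30 min libraries lay below them. The mean rose 2.82-fold, from 1.56 ± 0.499 TPM (SD, n = 3) to 4.40 ± 1.79 TPM (n = 3). On the log2(TPM + 1) scale the fold change was 1.04 (SE 0.25, limma, adjusted p = 0.0143). It held without 15 min replicate 2, which stands apart (limma, adjusted p = 0.0108). The call was lost without 15 min replicate 1 (adjusted p = 0.0980), control replicate 1 (0.0690) or control replicate 3 (0.0539), and when the fit held just these 6 libraries (0.143).

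Between 15 min and 30 min the mean of WND2A fell to 0.428 ± 0.199 TPM (n = 2), a log2 difference of -1.88 (SE 0.28, limma, adjusted p = 0.00785). For that step 0.495% of all tested genes were called. Without 30 min replicate 3, the library with the most genes listed at 0 (13313), the adjusted p of the step was 0.188, the remaining library being given the spread of the other groups. Leaving out 15 min replicate 1 gave 0.0501. Weighting the libraries gave 0.0802, where 9 of 25636 tested genes were called for the step. The value was 0.621 when the fit held just these 5 libraries. Against control, the 30 min level of WND2A was not called (log2 fold change -0.83, 95% interval -1.41 to -0.25 before adjustment, adjusted p = 0.116).

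Later group means of WND2A were 0.824 ± 0.341 TPM at 1 h (n = 3), 0.870 ± 0.331 TPM at 2 h (n = 2), 1.26 ± 0.572 TPM at 4 h (n = 3), 2.00 ± 0.269 TPM at 8 h (n = 3) and 2.68 ± 0.495 TPM at 24 h (n = 3). No single step between these times was called for WND2A, nor for WND1A or MYB021 other than the one of WND1A from 4 h to 8 h. Of all tested genes 0.0468% were called from 30 min to 1 h, 0.761% from 1 h to 2 h, 1.25% from 2 h to 4 h, 18.6% from 4 h to 8 h and 2.65% from 8 h to 24 h. For WND2A the adjusted p (limma) was 0.777 for 30 min to 1 h, 0.978 for 1 h to 2 h, 0.807 for 2 h to 4 h, 0.221 for 4 h to 8 h and 0.705 for 8 h to 24 h. All 1 h and both 2 h libraries of WND2A lay below all controls, by little for the highest at 1 h (1.21 TPM against 1.22 TPM). Of the genes that passed the filter, 10.2% did so at 1 h and 18.3% at 2 h. Neither difference was called (limma, adjusted p = 0.356 and 0.459). At 24 h the libraries of WND2A (2.27, 3.23 and 2.54 TPM) all lay above the controls, yet the difference was not called (log2 fold change 0.53, SE 0.25, adjusted p = 0.0991). From high to low the means ran 15 min, 24 h, 8 h, control, 4 h, 2 h, 1 h and 30 min.

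WND1A, its relative in the same tier, rose at the late times. The controls were at 0.807, 1.08 and 0.667 TPM, the 4 h libraries at 0.841, 0.553 and 0.555 TPM, the 8 h libraries at 1.97, 2.16 and 1.92 TPM and the 24 h libraries at 2.20, 2.48 and 1.49 TPM. All 8 h and 24 h libraries lay above all controls, as held for 23.9% and 23.8% of all genes with a value above 0. They also lay above all 4 h libraries, for which the share of all genes was not counted. The mean rose 2.37-fold at 8 h, from 0.851 ± 0.210 to 2.02 ± 0.126 TPM (n = 3 each), a log2 fold change of 0.71 (SE 0.22, limma, adjusted p = 0.0291). At 24 h it was 2.06 ± 0.509 TPM (n = 3), with a log2 fold change of 0.72 (adjusted p = 0.0277). The step between 4 h and 8 h was called (log2 difference 0.87, SE 0.22, limma, adjusted p = 0.0219, where 10.4% of all genes were called), and 24 h did not differ from 8 h beyond the spread (0.01, 95% interval -0.46 to 0.48).

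These calls of WND1A are close to the threshold. Leaving out 1 library at a time, the 8 h call was lost in 5 of 6 cases, with adjusted p values from 0.0622 to 0.0904, and kept without control replicate 2 (0.0410). The 24 h call was lost without control replicate 1 (0.0744), control replicate 3 (0.0882), 24 h replicate 1 (0.0839) or 24 h replicate 2 (0.107), and the step from 4 h to 8 h without any 1 of its 6 libraries (0.0570 to 0.0722). A pseudocount of 0.1 TPM gave 0.0677 at 8 h and 0.0672 at 24 h. At 15 min WND1A was at 2.02, 0.576 and 1.45 TPM, a spread from below the controls to the late level. The low value is that of replicate 2.

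WND1B, the other WND1 gene, is known for a splice form that keeps an intron and acts as a repressor, described in Populus. The table lists 1 transcript for it here. It stood at 0.450, 0.545 and 0.375 TPM in the control, at 1.26, 1.06 and 0.861 TPM at 8 h and at 1.22, 1.99 and 1.27 TPM at 24 h. The late libraries lay above all controls, as did those of 15 min, 30 min and 4 h, while WND1B was listed at 0 and 0.243 TPM at 2 h. Of all genes with a value above 0, 8.85% lay above all controls in every 15 min library, 13.1% at 30 min and 14.8% at 4 h. In the fit without the filter the log2 fold change was 0.50 at 8 h (SE 0.19, limma, adjusted p = 0.0701) and 0.76 at 24 h (SE 0.19, adjusted p = 0.00803). The 24 h call held without any 1 library and was lost with a pseudocount of 0.1 TPM (0.0856).

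The remaining NAC genes gave no call at any time. WND2B had group means from 0.216 TPM at 30 min to 1.01 TPM at 15 min, with 1.37, 1.18 and 0.471 TPM in the 15 min libraries against 0.380, 0.815 and 0.404 TPM in the control (log2 fold change 0.37, 95% interval -0.09 to 0.83, fit without the filter). At 24 h it was at 0.233, 0.760 and 0.0933 TPM, and its groups overlapped. The vessel-type genes WND6A and WND6B never exceeded 0.554 and 0.400 TPM. Their log2 fold changes at 8 h were -0.05 (95% interval -0.33 to 0.23) and -0.11 (-0.29 to 0.07), and at 24 h 0.10 (-0.18 to 0.38) and 0.10 (-0.09 to 0.28).

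**Figure D3:**
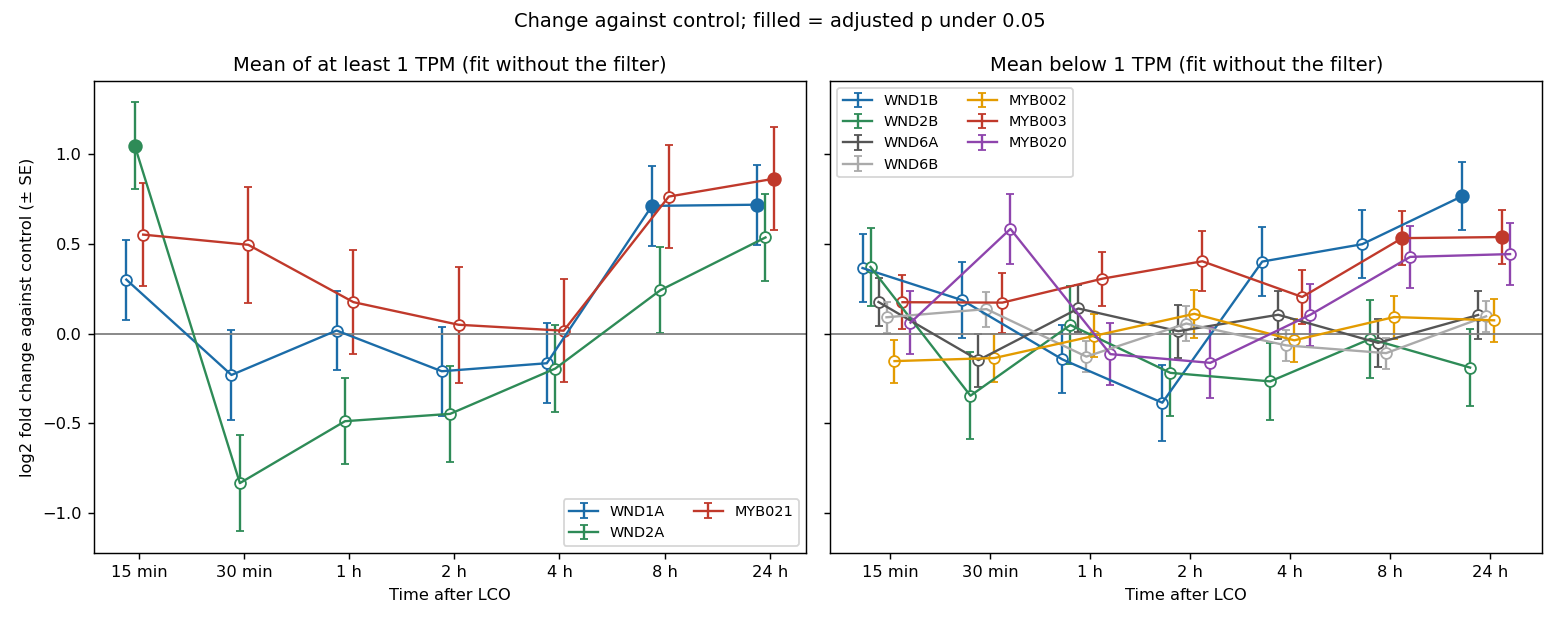
Log2 fold change against control (± SE) at each time after LCO, on the log2(TPM + 1) scale, for the 3 genes that average 1 TPM or more (left) and the 7 below (right), all from the fit without the filter. Filled points passed an adjusted p of 0.05: WND2A at 15 min, WND1A and MYB003 at 8 h, and WND1A, WND1B, MYB021 and MYB003 at 24 h.

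Among the MYB genes, MYB021 had the highest levels, and it rose at 24 h. It stood at 0.762, 1.28 and 0.421 TPM in the control, at 1.80, 3.09 and 1.43 TPM at 8 h and at 2.18, 3.57 and 1.35 TPM at 24 h. The late libraries lay above all controls, by little in the lowest of them. The mean rose 2.88-fold at 24 h, from 0.820 ± 0.432 to 2.37 ± 1.12 TPM (n = 3 each), a log2 fold change of 0.86 (SE 0.29, limma, adjusted p = 0.0294). At 8 h it was 2.11 ± 0.874 TPM (n = 3). Its log2 fold change then, 0.76 (SE 0.29), missed the threshold in limma, with an adjusted p of 0.0501. The 24 h call was lost without control replicate 1 (0.0715), control replicate 3 (0.113), 24 h replicate 1 (0.0640) or 24 h replicate 2 (0.152). The 8 h difference passed without control replicate 2 (0.0402), without 8 h replicate 3 (0.0449), when the fit held just these 6 libraries (0.0461), and without 15 min replicate 2 and 30 min replicate 3 (0.0476). It did not pass without control replicate 1 (0.109), control replicate 3 (0.170), 8 h replicate 1 (0.0765) or 8 h replicate 2 (0.213).

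Earlier, MYB021 was at 1.64, 1.25 and 2.01 TPM at 15 min and at 1.81 and 1.25 TPM at 30 min, overlapping the highest control. From high to low its means ran 24 h, 8 h, 15 min, 30 min, 1 h, 2 h, control and 4 h, and no neighbouring times after 15 min differed by the test (limma, adjusted p from 0.0811 for 4 h to 8 h to 0.984 for 2 h to 4 h). The step from 4 h to 8 h passed when the fit held just these 6 libraries (0.0414). It also passed with library weights (0.0327), where 10842 of 25636 tested genes were called.

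MYB003 and MYB020, whose poplar proteins are known to switch on lignin, cellulose and xylan genes when overproduced in Arabidopsis, were lower still. MYB003 was called higher at both late times, though it stayed below 1 TPM in every library. MYB003 was at 0.112, 0.0650 and 0.0486 TPM in the control, at 0.468, 0.702 and 0.498 TPM at 8 h and at 0.758, 0.713 and 0.258 TPM at 24 h. Its libraries lay above all controls at every time but 4 h, where they were at 0.0712, 0.273 and 0.390 TPM. Of all genes with a value above 0, 8.85% lay above all controls in every 15 min library. The share was 13.1% at 30 min, 7.92% at 1 h and 15.6% at 2 h. In the fit without the filter the log2 fold change was 0.53 at 8 h (SE 0.15, limma, adjusted p = 0.0170) and 0.54 at 24 h (SE 0.15, adjusted p = 0.0157). The 8 h call was lost without 8 h replicate 2 (0.0739) and the 24 h call without 24 h replicate 1 (0.0756) or 24 h replicate 2 (0.0700).

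MYB020 was at 0.324, 0 and 0.0593 TPM in the control, at 0.395, 0.805 and 0.352 TPM at 8 h and at 0.439, 0.763 and 0.386 TPM at 24 h. The late libraries lay above all controls, but the differences were not called (log2 fold change 0.43, adjusted p = 0.0901 at 8 h, and 0.44, 0.0785 at 24 h, limma, fit without the filter). It was listed at 0 in both 2 h libraries and in 2 of the 1 h libraries. Its highest value, 1.11 TPM, was in 30 min replicate 3, and its highest group mean, 0.720 TPM, was at 30 min. Both 30 min libraries (0.332 and 1.11 TPM) lay above all controls, as held for 13.1% of all genes with a value above 0. The 30 min difference was not called (log2 fold change 0.58, 95% interval 0.17 to 0.99 before adjustment, limma, adjusted p = 0.141, fit without the filter). MYB002 stayed between 0 and 0.469 TPM in all libraries, with a log2 fold change of 0.09 at 8 h (95% interval -0.16 to 0.34) and 0.07 at 24 h (-0.18 to 0.33). At 15 min its libraries (0.0668, 0.132 and 0.153 TPM) lay below all controls (0.180 to 0.284 TPM), as held for 9.3% of all genes with a value above 0. That difference was not called (log2 fold change -0.15, limma, adjusted p = 0.540, fit without the filter).

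Counted over all 10 genes, every 8 h library lay above every control for 5 genes and every 24 h library for 6, while this held for 23.9% and 23.8% of all genes with a value above 0. The 5 were WND1A, WND1B, MYB021, MYB003 and MYB020, and WND2A joined them at 24 h. WND2A, called at 15 min only, overlapped the controls at 8 h. The median log2 fold change of the 10 was 0.24 at 15 min, 0.33 at 8 h and 0.49 at 24 h, against 0.00 for all genes at these times, and 9, 7 and 9 of the 10 values were above 0. At 30 min, 1 h, 2 h and 4 h the medians lay between -0.08 and 0.00, with 5 of 10 values above 0 at each time. These comparisons share the same 3 control libraries. A moderated F test over all 7 times (limma), without the filter, passed for WND2A (adjusted p = 0.000455), WND1B (0.00438), WND1A (0.00885) and MYB020 (0.0237), where 39.8% of genes passed. MYB003, called at 8 h and 24 h, did not pass this F test (0.0668). MYB021 did not pass it with the filter (0.0686, where 58.9% of tested genes passed). With library weights MYB021 passed (0.0348), where 20840 of 25636 tested genes passed. It also passed without 1 h replicate 2 (0.0420) or without 24 h replicate 3 (0.0398), where 14271 and 14138 genes passed.

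The genes form pairs of close copies, and in 3 of the 5 pairs 1 gene was the higher in most libraries. WND2A was above WND2B in 21 of 22 libraries, with a mean 3.76 times as high, and MYB021 was above MYB002 in 21 of 22, with a mean 5.89 times as high. WND1A was above WND1B in 17 libraries (1.51 times). The other pairs were mixed: MYB003 was above MYB020 in 13 (1.17 times) and WND6A above WND6B in 12 (1.61 times). WND2A made up 33.1% to 36.3% of the summed level of the 6 NAC genes in the 8 h libraries and 47.9% to 58.6% at 15 min. That sum was 3.68 ± 0.865 TPM in the control, 8.15 ± 3.10 TPM at 15 min, 2.16 ± 0.0205 TPM at 30 min, 5.72 ± 0.624 TPM at 8 h and 7.05 ± 1.48 TPM at 24 h (n = 3, and 2 at 30 min). The sum of the 4 MYB genes was 1.27 ± 0.429 TPM in the control, 2.15 ± 0.529 TPM at 15 min, 2.60 ± 0.0889 TPM at 30 min, 3.50 ± 1.27 TPM at 8 h and 3.78 ± 1.63 TPM at 24 h. The NAC sum was thus lower at 30 min than at 15 min in every library, and the MYB sum was not. Reads that fit both copies of a pair are shared out by an estimate, and its error is not in these values.

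**Figure D4:**
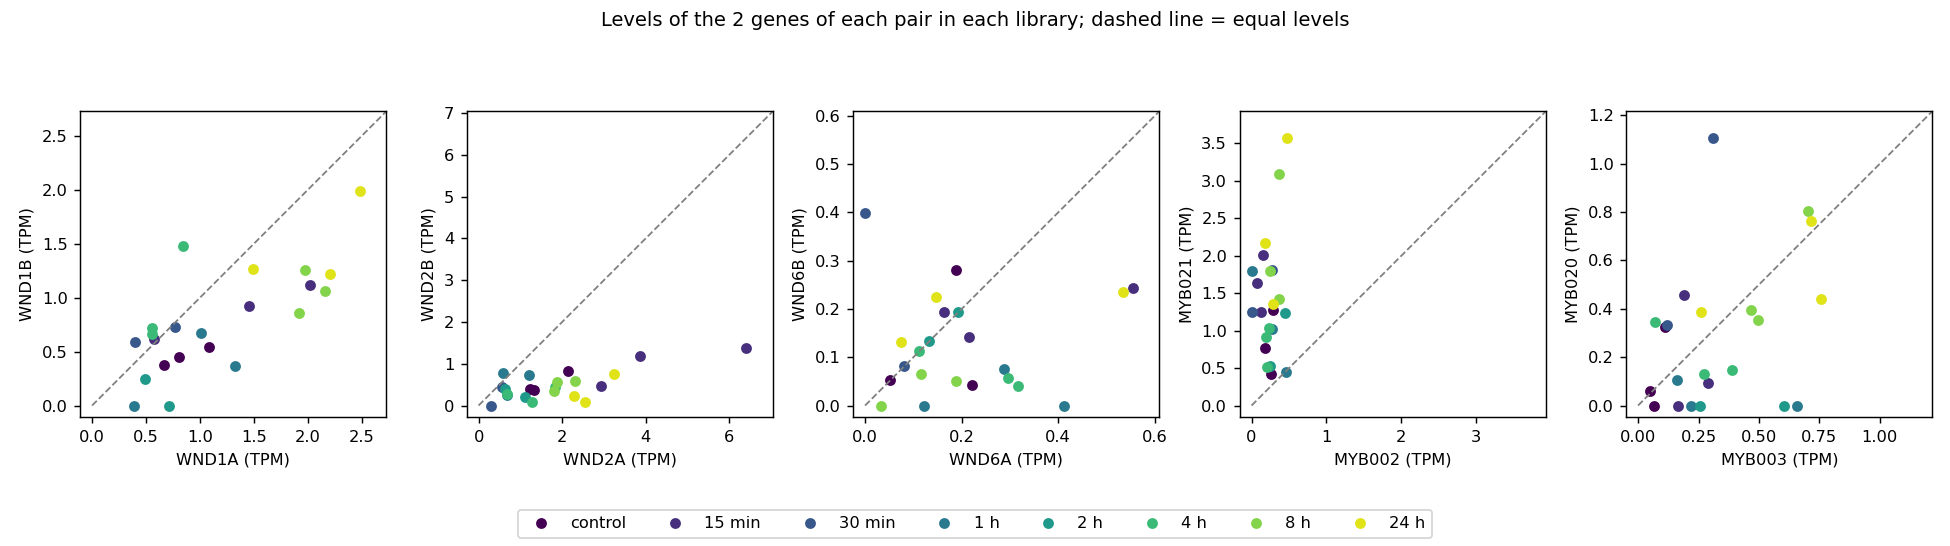
Level in TPM of the 2 genes of each pair in all 22 libraries, coloured by time, with a dashed line at equal levels. WND2A and MYB021 exceed their partners in 21 of 22 libraries, and the points of WND6A with WND6B, and of MYB003 with MYB020, lie on both sides of the line.

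The transcript table lists 1 transcript for 8 of the genes and 2 each for WND2B and WND6A. The 2 transcripts of WND6A had equal values, within 0.001 TPM, in 16 libraries, so there the estimate did not tell them apart. For WND2B, transcript 1 led in 15 libraries and transcript 2 in 6. In that table, tested on its own, the transcript of WND2A was called higher at 15 min (log2 fold change 1.03, limma, adjusted p = 0.0282), where 4.93% of tested transcripts were called. The late differences of WND1A (0.66, adjusted p = 0.0596 at 8 h, and 0.67, 0.0530 at 24 h) and MYB021 (0.82, adjusted p = 0.0553 at 24 h) missed the threshold there, where 29.6% of transcripts were called at 8 h and 30.3% at 24 h. Transcripts were tested with the filter of 1 TPM, and that of WND1A averaged 1.18 TPM. Its means of 1.93 TPM at 8 h and 2.00 TPM at 24 h, against 0.866 TPM in the control, raise that average. Its late tests there therefore do not count as support for a late rise.

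The genes most like WND2A in their course, among the 16901 genes that average 5 TPM or more, were Potri.004G229500, Potri.016G001700 and Potri.003G067900. The measure is the mean absolute difference of log2(TPM + 1) over the 22 libraries after each gene is centred on its own mean, and it was 0.26 to 0.27, against 0.58 for the median gene and 0.50 for a gene that does not vary. Group means of Potri.016G001700 were 12.2 TPM for the control, 28.7 TPM for 15 min, 11.4 TPM for 30 min and 20.5 TPM for 24 h. For MYB021 they were Potri.009G149700, Potri.019G002100 and Potri.001G137700, at 0.20 to 0.21 against 0.48 for the median gene and 0.34 for a gene that does not vary.

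Other genes of wall formation were counted from lists whose identifiers follow published poplar names and were not checked against an annotation here. At 8 h, where 20.1% of tested genes were called higher, 17 of 20 monolignol (lignin precursor) enzyme genes, 1 of 5 secondary wall cellulose synthase genes, 2 of 4 tested xylan glycosyltransferase genes and 1 of 5 other wood regulator genes were higher than control, and none of these was lower. The median log2 fold change was 1.04 for the monolignol genes and 0.52 for the cellulose synthase genes, against 0.04 for all tested genes. Of 3 tested NAC genes of the VND6 type limma called 0 at 8 h, also at an unadjusted p under 0.05. At 24 h, where again 20.1% of tested genes were called higher, the numbers were 11 of 20, 1 of 5, 2 of 4 and 0 of 5, with 1 other regulator and 1 VND6-type gene lower (15.8% of all tested genes were). The monolignol genes had means from 1.71 to 1556 TPM (median 214 TPM), and the cellulose synthase genes from 1.80 to 7.15 TPM.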

How the data were processed

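RNA from roots was sequenced, and 22 of the 24 labelled libraries have a column in the tables. The others were not analysed here. Values in both deposited tables, of genes and of transcripts, are on a natural log scale, ln(TPM + 1), after quantile normalization by the authors. The table names and the values show this, since back-transformed libraries total 936253 to 936552 TPM. Quantile normalization removes any change in total output. Per the submitters' processing notes, kallisto and sleuth were used, without versions. No source used here gives the genome build, and no sequence or annotation was used.

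Values were back-transformed to TPM. Group means were fitted on log2(TPM + 1) by limma 3.58.1 under R 4.3.3, with moderated variances that follow the mean level, 14 residual degrees of freedom, and adjustment over all genes tested. Groups share 1 estimate of the spread. The procedure was tested on simulated data for genes that average at least 1 TPM, with an equal spread in every library. That does not cover the members below 1 TPM or libraries that stand apart. The pseudocount of 1 TPM shrinks fold changes of genes this low. Depth is unknown, so no counting interval is given, and the p-values measure the spread between pools of plants.

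The rule names all 10 members, and as most alike the 3 genes nearest to the most abundant NAC and MYB member. The members and lists were chosen with earlier results of these data known. Alternatives were other pseudocounts (0.1 and 10 TPM), other filters (none, 5 TPM), leaving out each library, a replicate block, library weights and fits of both groups alone. Combinations of no filter with the other settings, and giving WND1A without the filter, were chosen after seeing the data.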

Additional observations from a re-analysis of the deposited data

Results flagged for a closer look

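2 differences between neighbouring times passed their own test, so that the effects against control at these times differ. WND2A was lower at 30 min than at 15 min by a log2 difference of -1.88 (limma, adjusted p = 0.00785, lower in both 30 min libraries than in every 15 min library). WND1A was higher at 8 h than at 4 h by 0.87 (adjusted p = 0.0219 in the fit without the filter, higher in all 3 libraries than in every 4 h library). The share of all genes without overlap between these neighbouring times was not counted, so the lack of overlap adds no support. No group has the 4 libraries that a search for outlying samples needs.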

How the results depend on the processing

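Counts here are of members called under the filter of 1 TPM unless transcripts or lists are named; where they moved, the cause was not tested. WND1A passed that filter through its late values, so its own gene tests are given without it. Its transcript was tested with the filter. Counts with the filter that involve 8 h or 24 h still include WND1A, so they do not count as support for its late rise. With a pseudocount of 0.1 TPM, 0 members were called at 8 h and 1 at 24 h, against 8954 and 8880 of all 25636 tested genes. Without the filter (10 genes tested instead of 3), 2 were called at 8 h, 4 at 24 h and 4 by the F test. Leaving out 1 library, the F test passed 2 to 3 with the filter and 4 to 5 without it. A filter of 5 TPM leaves no member. With only the libraries of both groups, 0 were called at 15 min, 2 at 8 h, 0 for 15 min to 30 min and 2 for 4 h to 8 h. Library weights gave 0 for 15 min to 30 min and 2 for 4 h to 8 h. Of all 25636 tested genes, weights gave 9 and 10842 calls for these steps, against 127 and 4762 without weights. Leaving out both 15 min replicate 2 and 30 min replicate 3 gave 2 members at 8 h, where 11271 of all tested genes were called. Leaving out 1 library gave 0 to 1 at 15 min, 0 to 2 at 8 h, 0 to 2 at 24 h, 0 to 2 for 15 min to 30 min and 0 for 4 h to 8 h.

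The replicate numbers were not taken to pair the samples: deviations of same-numbered libraries had correlations from -0.355 to 0.386 (median 0.048), others a median of -0.0313. With a replicate block 2 members were called at 8 h, MYB021 being the second (adjusted p = 0.0226), and 2 for 4 h to 8 h, again with MYB021 (0.0425). MYB021 also passed the F test with the block (0.0180); 1 transcript was called at 8 h and 1 at 24 h.

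For transcripts of members, a pseudocount of 0.1 TPM gave 0 at 15 min, and 1 was called at 8 h and 24 h with a pseudocount of 10 TPM, without 15 min replicate 2 and 30 min replicate 3, or with only the libraries of both groups (0 at 15 min); without the filter 1 was called at 24 h. Leaving out 1 library gave 0 to 1 at 15 min and 0 to 2 at 24 h.

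Calls over all genes moved with the settings too. Of all 25636 tested genes, 2066 were called at 15 min, 739 at 1 h and 2452 at 4 h. With library weights these rose to 9491, 4988 and 6376. List genes called numbered 10 (15 min), 0 (1 h), 3 (2 h), 8 (4 h), 21 (8 h) and 16 (24 h). Library weights gave 18 at 15 min, 4 at 1 h and 15 at 4 h, only the libraries of both groups 0 at 15 min and 1 at 2 h, no filter 5 at 4 h, a filter of 5 TPM 1 at 1 h, and leaving out 15 min replicate 2 and 30 min replicate 3 14 at 15 min and 2 at 1 h. Leaving out 1 library gave 3 to 13 (15 min), 0 to 6 (30 min), 0 to 2 (1 h), 1 to 3 (2 h), 4 to 6 (4 h), 16 to 21 (8 h) and 11 to 15 (24 h).

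For single genes, 33 of the alternative values lost a call and 22 gained one. None changed the direction of a called difference. The depth behind the values is unknown.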
